A study of Mus musculus with 12 samples.

Results

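The genes described here encode negative regulators of MAP kinase signalling, most of them feedback regulators of the RAS-ERK pathway. They are the dual-specificity phosphatases Dusp1, Dusp4, Dusp5, Dusp6 and Dusp10, the Sprouty genes Spry1, Spry2 and Spry4, and the Spred genes Spred1 and Spred2. They were chosen by symbol, as every probe set that the annotation table gives to 1 of these genes and to no other gene. This gave 26 probe sets of 10 genes, among 34945 single-gene probe sets of 18193 genes on the array. RNA of granulosa cells, which line the ovarian follicle and nourish its oocyte, was hybridised to 12 single-colour Affymetrix mouse arrays, 3 for each of 4 groups.

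The groups were Inha-/- cells after PMSG and hCG, wild-type cells after PMSG and hCG, Inha-/- cells after PMSG alone, and wild-type cells after PMSG alone. All mice were 21 days old and carried the strain label C57BL/6J;129S5/SvEvBrd. All were primed with PMSG (5 IU), a serum gonadotropin of pregnant mares with the action of follicle-stimulating hormone that grows follicles to the preovulatory stage. The PMSG groups were sampled after 44 to 46 h. The hCG groups were then given human chorionic gonadotropin (hCG, 5 IU), a stand-in for luteinizing hormone (LH), and sampled 6 h later. Inha encodes the alpha subunit of the inhibins, and Inha-/- mice lack it in every tissue, so that the cells also grew under the hormone levels of a mouse without inhibin. Cells were released by puncture of antral follicles and were not sorted. The design calls the 3 samples of a group independent without saying whether each came from 1 mouse or a pool, so that the p-values measure the spread between these samples only.

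Growth factor receptors activate the kinase ERK through the adaptor GRB2, the GTPase RAS and the kinases RAF and MEK. Active ERK induces its own brakes: dual-specificity phosphatases remove phosphate from ERK, p38 or JNK, and Sprouty and Spred proteins hold back the steps at RAS and RAF. In mouse preovulatory follicles LH makes granulosa cells release EGF-like ligands, and the ERK activity that follows is required for ovulation and luteinization.

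The values were log2 expression values, with each probe set centred on its median over the 12 arrays. A value of 0 is therefore the median of that probe set, a negative value is not a low level, and no level can be compared between genes or set against background. For the same reason the granulosa identity of the samples could not be checked as a level. Inha checked the labels: it lay at -7.35, -7.35 and -7.40 in Inha-/- cells after hCG, against 5.52, 5.40 and 5.42 in wild-type cells after hCG, and at -7.38, -5.40 and -7.25 in Inha-/- cells after PMSG, against 5.62, 5.62 and 5.87 in wild-type cells after PMSG. Whether its probe set reads the deleted stretch of the gene is not stated in the labels. Across probe sets, which are not independent replicates, arrays of 1 group correlated with r between 0.205 and 0.358 in Inha-/- cells after PMSG and between 0.388 and 0.823 in the other groups.

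ERK, cAMP and stress signals reach genes through short DNA motifs, and the promoters of 4 members are shown. These genes moved with hCG or differed between the genotypes, but Dusp10, Spry2 and Spred1 also moved and their windows are not shown. The shown genes include every member with a motif match (Dusp1, Dusp5 and Spred2). Of the 10 members, 8 were found in the promoter table taken from RefSeq (mouse build GRCm38.p6), and Dusp4 and Spry4 were not analysed in this way. Each window holds the 250 bases before the start of the gene. It covers chr17:26508473-26508722 on the minus strand for Dusp1, chr19:53528895-53529144 on the plus strand for Dusp5, chr10:99262981-99263230 on the plus strand for Dusp6 and chr11:19924192-19924441 on the plus strand for Spred2. Sequences run 5′ to 3′ and capitals mark the motif matches:
Dusp1: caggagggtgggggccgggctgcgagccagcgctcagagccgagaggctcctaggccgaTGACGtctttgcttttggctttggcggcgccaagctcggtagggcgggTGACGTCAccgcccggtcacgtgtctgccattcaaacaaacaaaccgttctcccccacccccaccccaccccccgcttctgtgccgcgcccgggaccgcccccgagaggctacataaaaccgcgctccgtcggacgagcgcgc
Dusp5: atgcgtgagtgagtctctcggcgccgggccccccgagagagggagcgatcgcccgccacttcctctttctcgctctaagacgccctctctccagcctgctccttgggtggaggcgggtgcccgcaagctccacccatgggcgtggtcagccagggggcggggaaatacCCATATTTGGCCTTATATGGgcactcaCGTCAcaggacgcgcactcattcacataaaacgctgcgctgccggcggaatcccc
Dusp6: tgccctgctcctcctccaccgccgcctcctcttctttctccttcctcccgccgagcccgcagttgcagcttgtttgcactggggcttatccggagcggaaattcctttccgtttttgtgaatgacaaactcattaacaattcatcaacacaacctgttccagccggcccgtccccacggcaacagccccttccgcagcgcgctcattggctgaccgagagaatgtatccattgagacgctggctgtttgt
Spred2: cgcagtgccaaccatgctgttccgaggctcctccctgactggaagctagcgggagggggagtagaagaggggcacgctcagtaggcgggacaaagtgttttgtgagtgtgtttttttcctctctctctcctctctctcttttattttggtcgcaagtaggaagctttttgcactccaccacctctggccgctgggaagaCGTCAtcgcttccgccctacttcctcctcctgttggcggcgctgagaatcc
Both strands were searched for the full cAMP response element TGACGTCA, its core TGACG, the AP-1 site TGANTCA and the CArG box, the site of serum response factor. The Dusp1 window holds the full cAMP response element 143 bases before the start, a motif found in 1.55% of 32851 promoter windows of this length. Core matches lie 191, 143 and 140 bases before the start, and the last pair are the overlapping strands of the full element. Dusp5 holds adjacent CArG boxes 82 and 72 bases before the start, a motif in 1.47% of windows, and a core match at 55 bases. Spred2 has a core match at 51 bases, a motif in 17.8% of windows. No AP-1 site (6.75% of windows) stood in any of the 8 windows, and none of the 4 motifs was found in those of Dusp6, Dusp10, Spry1, Spry2 and Spred1. These matches describe letters and not binding.

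The response to hCG, set against PMSG alone within each genotype, asks how the feedback genes answer the ovulatory signal. In wild-type cells Dusp4, Dusp5, Dusp6, Dusp10, Spry2, Spred1 and Spred2 rose, and in Inha-/- cells Dusp6, Spry2, Spred1 and Spred2 rose. Dusp6 moved furthest, 21.7-fold in Inha-/- and 11.5-fold in wild-type cells. Spred2 rose 5.19-fold in Inha-/- and 5.20-fold in wild-type cells. Dusp4 rose 8.0-fold in wild-type cells, more than Spred2 there, while its difference in Inha-/- cells, 1.78-fold, did not pass the test. In bulk RNA of this kind fewer cells of a type and less RNA per cell cannot be told apart.

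**Figure D1:**
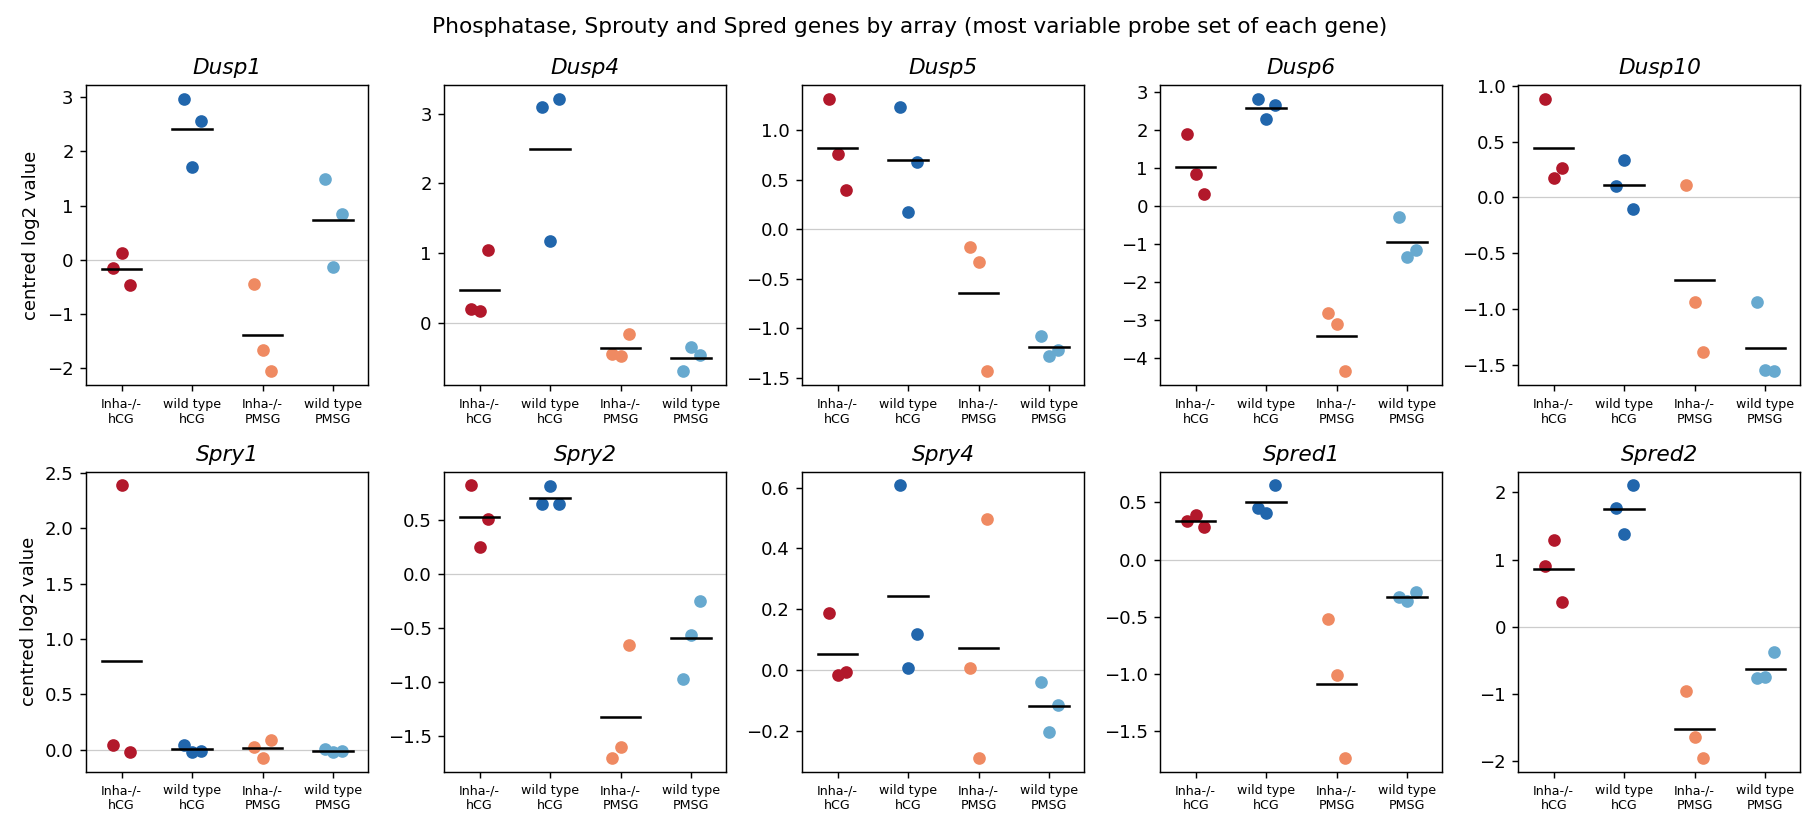
Centred log2 value (vertical axis, own scale for each gene) of the most variable probe set of the 10 genes on the 12 arrays; points are arrays and black bars are group means. Dusp6 runs from -4.35 to -2.82 in Inha-/- cells after PMSG and from 2.27 to 2.82 in wild-type cells after hCG, and Spry1 stands off 0 on a single array.

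Dusp6 encodes a cytoplasmic phosphatase that acts on ERK and is itself induced by ERK signalling. In Inha-/- cells it lay at 1.90, 0.84 and 0.31 after hCG, against -2.82, -3.11 and -4.35 after PMSG. In wild-type cells it lay at 2.82, 2.27 and 2.65 after hCG, against -0.31, -1.35 and -1.17 after PMSG. All 3 arrays after hCG were above all 3 after PMSG in each genotype, and the 4 groups did not overlap. The log2 response was 4.44 ± 0.50 in Inha-/- cells (SE, adjusted p = 0.00212) and 3.52 ± 0.50 in wild-type cells (adjusted p = 0.00235), from limma with Benjamini-Hochberg adjustment over all single-gene probe sets. The responses differed by 0.92 (95% interval -0.66 to 2.50, adjusted p = 0.839), which did not pass.

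Dusp4 encodes a nuclear phosphatase of ERK, JNK and p38. Its values were 0.20, 0.17 and 1.04 in Inha-/- cells after hCG, against -0.45, -0.47 and -0.17 in Inha-/- cells after PMSG. In wild-type cells they were 3.09, 1.17 and 3.22 after hCG, against -0.70, -0.35 and -0.47 after PMSG. Replicates 1 and 3 of wild type after hCG stood well above replicate 2, and all 3 were above the Inha-/- arrays after hCG. The response was 0.84 ± 0.48 in Inha-/- cells (adjusted p = 0.735) and 3.0 ± 0.48 in wild-type cells (adjusted p = 0.00458). The difference of the responses, -2.16 ± 0.69, had an unadjusted p of 0.0111 and an adjusted p of 0.245. It passed without wild-type replicate 2 after hCG (-2.83, adjusted p = 0.0064), with array weights (-2.11, adjusted p = 0.026) and on the early arrays alone (-2.93, adjusted p = 0.0307), and over all 22 alternatives the adjusted p ran from 0.0064 to 0.489.

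Dusp5 encodes a nuclear phosphatase specific for ERK. It lay at 1.32, 0.76 and 0.39 in Inha-/- cells after hCG, against -0.18, -0.33 and -1.43 after PMSG, and at 1.24, 0.18 and 0.68 in wild-type cells after hCG, against -1.08, -1.27 and -1.22 after PMSG. The groups after hCG and after PMSG did not overlap in either genotype. The rise passed in wild-type cells (1.89 ± 0.38, adjusted p = 0.0117), and the difference of 1.47 ± 0.38 in Inha-/- cells did not (adjusted p = 0.145). The Inha-/- response passed with the early or late serial number as a covariate (1.77, adjusted p = 0.00139), with array weights (0.79, adjusted p = 0.00998) and on the early arrays alone (1.57, adjusted p = 0.0375). The responses of the genotypes differed by -0.42 (95% interval -1.61 to 0.78), so that the missed threshold in Inha-/- cells does not show a smaller response. Dusp5 is also the gene whose window holds the paired CArG boxes printed above.

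Dusp1 and Dusp10 encode phosphatases that act foremost on p38 and JNK, Dusp1 also on ERK. Dusp1, an early response gene, lay at -0.14, 0.13 and -0.47 in Inha-/- cells after hCG, against -0.45, -1.65 and -2.06 after PMSG, groups that overlapped by 1 array. It lay at 2.97, 1.72 and 2.56 in wild-type cells after hCG, against 1.49, -0.13 and 0.85 after PMSG, groups that did not overlap. Neither response passed: 1.22 ± 0.52 in Inha-/- cells (adjusted p = 0.498) and 1.68 ± 0.52 in wild-type cells (adjusted p = 0.0688). The wild-type response passed without wild-type replicate 2 after hCG (2.03, adjusted p = 0.0466) or without Inha-/- replicate 1 after PMSG (1.68, adjusted p = 0.0403). It also passed with the replicate number as a block (adjusted p = 0.0365), with a filter on SD (adjusted p = 0.0288) and with array weights (2.10, adjusted p = 0.00515). Dusp10 lay at 0.88, 0.18 and 0.26 in Inha-/- cells after hCG, against 0.11, -0.94 and -1.39 after PMSG, and at 0.11, 0.34 and -0.11 in wild-type cells after hCG, against -0.93, -1.55 and -1.56 after PMSG. Its rise in wild-type cells (1.46 ± 0.36, adjusted p = 0.0301) was lost when any 1 of 5 arrays was left out, all of wild type (replicates 1, 2 and 3 after hCG, 2 and 3 after PMSG), with values of 1.35 to 1.57. It was also lost on the early arrays alone. The difference in Inha-/- cells was 1.18 ± 0.36 (adjusted p = 0.265), and 1.60 (adjusted p = 0.0338) without Inha-/- replicate 1 after PMSG.

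Sprouty proteins are membrane-associated inhibitors of receptor signalling to RAS and RAF. Spry2 lay at 0.82, 0.25 and 0.51 in Inha-/- cells after hCG, against -1.70, -1.60 and -0.65 after PMSG. In wild-type cells it lay at 0.64, 0.82 and 0.65 after hCG, against -0.97, -0.57 and -0.25 after PMSG. It rose by 1.84 ± 0.28 in Inha-/- cells (adjusted p = 0.0139) and by 1.30 ± 0.28 in wild-type cells (adjusted p = 0.0174). The rise was lost without replicate 3 after hCG or replicate 2 after PMSG in Inha-/- cells (highest adjusted p = 0.0546), and without replicate 3 after hCG or replicates 1 or 2 after PMSG in wild-type cells (highest adjusted p = 0.0605). The wild-type rise was also lost with the shared array number as a random block, with the serial number as a covariate and on the early arrays alone (highest adjusted p = 0.123). Spry1 stayed between -0.075 and 0.088 on 11 arrays and stood at 2.39 on replicate 2 of Inha-/- cells after hCG. No probe set of Spry1 or Spry4 passed in any comparison. The lead probe set of Spry4 ranged from -0.29 to 0.61, and on the second probe set the response was 0.32 ± 0.13 in Inha-/- cells (adjusted p = 0.464) and 0.39 ± 0.13 in wild-type cells (adjusted p = 0.0826, with 0.0419 and 0.0479 without Inha-/- replicate 1 or 2 after hCG).

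Spred proteins bind neurofibromin, which switches RAS off, and bring it to the membrane. Spred2 lay at 0.90, 1.29 and 0.37 in Inha-/- cells after hCG, against -0.96, -1.65 and -1.96 after PMSG, and at 1.77, 1.37 and 2.10 in wild-type cells after hCG, against -0.77, -0.75 and -0.37 after PMSG. The 4 groups did not overlap, as for Dusp6. The rise was 2.38 ± 0.31 in Inha-/- cells (adjusted p = 0.00529) and 2.38 ± 0.31 in wild-type cells (adjusted p = 0.00147), and the 95% interval of the difference between these responses ran from -0.99 to 0.98. Spred1 rose on 1 probe set in both genotypes, by 0.93 ± 0.13 in Inha-/- cells (adjusted p = 0.0072) and by 0.75 ± 0.13 in wild-type cells (adjusted p = 0.0058). On its most variable probe set Spred1 lay at 0.34, 0.39 and 0.28 in Inha-/- cells after hCG, against -0.52, -1.01 and -1.74 after PMSG, and at 0.45, 0.41 and 0.65 in wild-type cells after hCG, against -0.33, -0.36 and -0.28 after PMSG. That probe set passed in Inha-/- cells (1.42 ± 0.24, adjusted p = 0.0236), though not when 1 of 4 Inha-/- arrays was left out (replicates 1, 2 or 3 after hCG or 2 after PMSG, 1.4 to 1.46) or with the replicate number as a block, and not in wild-type cells (0.83 ± 0.24, adjusted p = 0.0566).

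**Figure D2:**
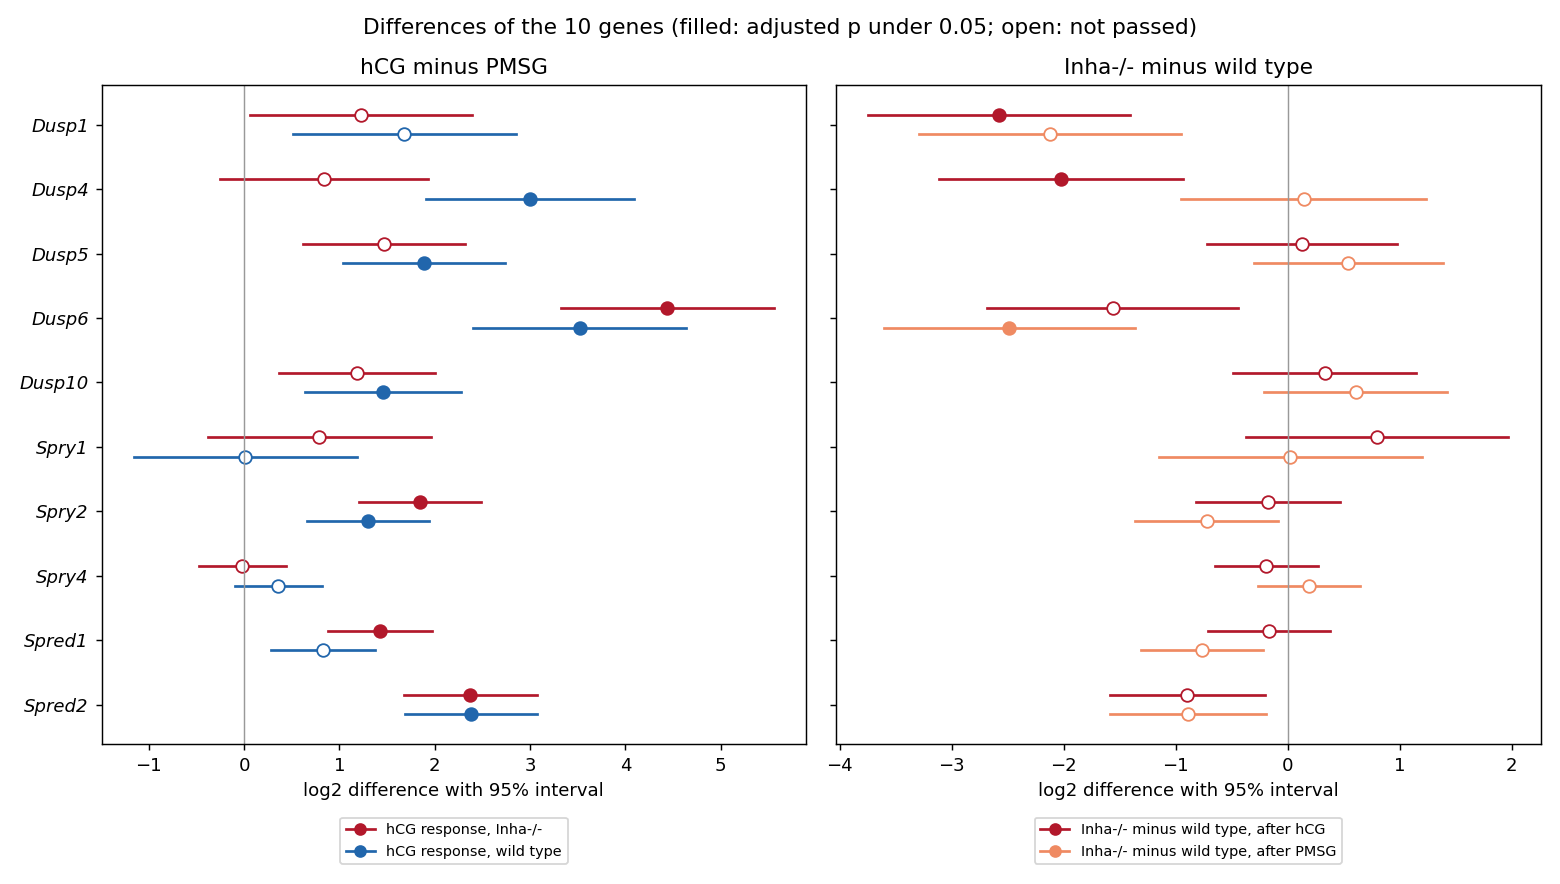
Log2 differences of the most variable probe set of each gene with 95% intervals from limma: hCG minus PMSG in each genotype on the left, Inha-/- minus wild type after each treatment on the right. Filled points passed at an adjusted p under 0.05; on the left Dusp6 and Spred2 passed in both genotypes, and on the right Dusp1 and Dusp4 (after hCG) and Dusp6 (after PMSG) passed, all lower in Inha-/- cells.

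Over all 26 probe sets, 6 passed for hCG in Inha-/- cells, all higher and in 4 genes, where 1.1% of the 34945 probe sets were called higher and 1.2% in either direction. In wild-type cells 7 passed, all higher and in 7 genes, where 5.98% were called higher and 12.1% in either direction. The median log2 response of the 26 probe sets was 0.58 in Inha-/- cells, beside -0.036 for all probe sets, and 0.45 in wild-type cells, beside 0.0047 for all. Arrays after hCG lay above all arrays after PMSG for 10 member probe sets in Inha-/- cells, where this held for 5.19% of all, and for 14 in wild-type cells, where it held for 13.1%. The difference of the responses passed in limma for 0 of the 26, with 1 at an unadjusted p under 0.05, where 0.93% of all probe sets passed and 10.5% had such a p. On the early arrays alone, with 1 array in each hCG group, the rises of Dusp6, Spry2, Spred1 and Spred2 in Inha-/- cells missed the threshold. Those of Dusp10, Spry2 and Spred1 in wild-type cells also missed it. Of all calls in Inha-/- cells 91.6% were higher after hCG, and 81.1% after a further quantile normalization.

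**Figure D3:**
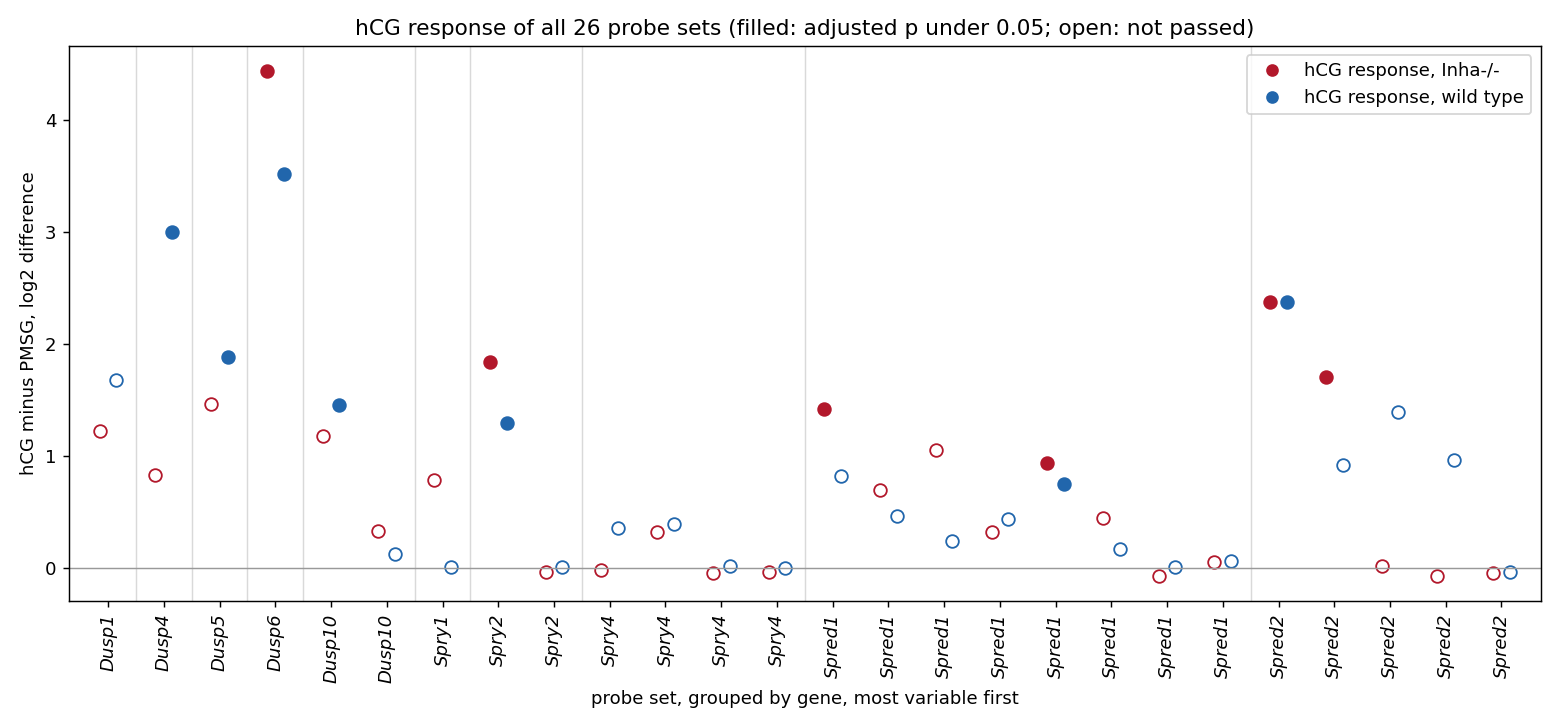
Log2 response to hCG (vertical axis) of each of the 26 probe sets, grouped by gene with the most variable probe set first, in Inha-/- and wild-type cells; filled points passed at an adjusted p under 0.05. For Spry2, Spred1 and Spred2 responding probe sets stand beside others near 0.

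Probe sets of 1 gene did not move alike. The other probe set of Spry2 stayed between -0.022 and 0.098 on all arrays, 1 of the 5 of Spred2 between -0.035 and 0.12, and 2 of the 4 of Spry4 between -0.031 and 0.10. The second probe set of Dusp10 stood at 1.32 on replicate 1 of Inha-/- cells after hCG and between -0.083 and 0.18 on the other arrays. Of Spred2, the second probe set went the other way between genotypes: it lay at 1.71, 0.98 and 1.04 in Inha-/- cells after hCG, above 0.10, 0.83 and 0.37 in wild-type cells after hCG (difference 0.81 ± 0.31, adjusted p = 0.14). Its rise with hCG in Inha-/- cells, 1.71 ± 0.31 (adjusted p = 0.0318), was lost when any 1 of 8 arrays was left out (1.48 to 1.84), namely any Inha-/- array, or replicate 3 of wild type after hCG or after PMSG. It was also lost with the replicate number as a block, with the serial number as a covariate and on the early arrays alone. Another Spred2 probe set stood at 1.87 and 2.23 on replicates 1 and 3 of wild type after hCG and within 0.073 of 0 on all other arrays, wild-type replicate 2 after hCG included. Without that array its response in wild-type cells was 2.05 (adjusted p = 1.04e-05), against 1.39 (adjusted p = 0.0743) with it. Dusp4 was also lowest on replicate 2 of these 3 arrays.

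Inha-/- cells were next set against wild-type cells after hCG, to see whether the feedback genes depend on inhibin alpha once the ovulatory signal is given. Dusp1 and Dusp4 were lower in Inha-/- cells, 5.97-fold and 4.06-fold, and no member was called higher. These were 2 of 26 probe sets, where 5.55% of all were called lower and 12.1% in either direction. Of the member probe sets 6 lay lower on all Inha-/- arrays than on all wild-type arrays, where 12.6% of all did, and 1 lay higher, where 13.8% did. The median difference over the 26 was -0.014, beside -0.00076 for all probe sets.

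Dusp1 averaged -0.16 ± 0.30 in Inha-/- cells and 2.42 ± 0.64 in wild-type cells after hCG (SD, n = 3 each), a difference of -2.58 ± 0.52 (SE, adjusted p = 0.0115). Within arrays of early serial number it was -3.12 (1 array a group) and within those of late serial number -2.31 (2 arrays a group). Its call was lost on the early arrays alone (adjusted p = 0.258) and held in the 21 other alternatives. Dusp4 averaged 0.47 ± 0.49 in Inha-/- cells and 2.49 ± 1.15 in wild-type cells (SD, n = 3 each), a difference of -2.02 ± 0.48 (SE, adjusted p = 0.0252), with -2.89 and -1.59 within the early and late arrays. The Dusp4 call was lost without Inha-/- replicate 1 or 2 or wild-type replicate 1 or 3 after hCG (-1.66 at the smallest, highest adjusted p = 0.0955), with the shared array number as a random block (-2.12, adjusted p = 0.126) and after a further quantile normalization (-1.18, adjusted p = 0.073).

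Dusp6 was lower on every Inha-/- array than on every wild-type array after hCG, with group means of 1.02 ± 0.81 and 2.58 ± 0.28 (SD, n = 3 each), but its difference of -1.56 ± 0.50 did not pass (adjusted p = 0.0761). Without Inha-/- replicate 1 after hCG it was -2.0 (adjusted p = 0.033), and over all 22 alternatives the adjusted p ran from 0.00177 to 0.638. Spred2 likewise did not overlap, with group means of 0.85 ± 0.46 in Inha-/- and 1.75 ± 0.37 in wild-type cells and a difference of -0.89 ± 0.31 (adjusted p = 0.102, and 0.0176 at -1.16 with array weights). For Dusp5, Dusp10, Spry2 and Spred1 the lead probe sets differed by -0.18 to 0.33, with 95% intervals that reached from -0.82 at the lowest to 1.15 at the highest.

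The same genotype comparison after PMSG alone concerns follicles that have reached the preovulatory stage without that signal. Dusp6 was 5.59-fold lower in Inha-/- cells, with a group mean of -3.43 ± 0.82, against -0.94 ± 0.56 in wild-type cells (SD, n = 3 each; difference -2.48 ± 0.50, SE, adjusted p = 0.0308). It was the 1 probe set of 26 that passed, where 1.6% of all were called lower and 3.04% in either direction. The pairs of arrays that share a number in their array names, replicates 1 and replicates 2, gave -2.51 and -1.76, and the arrays of early serial number gave -2.02. The call was lost without Inha-/- replicate 2 or 3, or without any 1 wild-type replicate after PMSG (-2.79 to -2.02 over all left-out arrays, highest adjusted p = 0.102), and also after a further quantile normalization (-1.76, adjusted p = 0.121) and on the early arrays alone (adjusted p = 0.158).

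Dusp1 averaged -1.39 ± 0.84 in Inha-/- cells after PMSG and 0.74 ± 0.82 in wild-type cells (SD, n = 3 each), without overlap, and the difference of -2.12 ± 0.52 did not pass (adjusted p = 0.0654). It was -2.59 (adjusted p = 0.0288) without Inha-/- replicate 1 after PMSG, and over all 22 alternatives the adjusted p ran from 0.0138 to 0.417. Spred2 (-0.89 ± 0.31, adjusted p = 0.196) and the lead probe set of Spred1 (-0.76 ± 0.24, adjusted p = 0.152) also lay lower on every Inha-/- array. In all 5 member probe sets did so, where 7.68% of all did, and 1 lay higher, where 10.1% did. The median over the 26 was 0.012, beside 0.039 for all probe sets. Dusp4, which differed after hCG, stood at 0.14 ± 0.48 here (95% interval -0.95 to 1.23). The 2 genotype comparisons use different arrays, whereas each shares 3 arrays with each response to hCG, so that the high wild-type values of Dusp4 after hCG enter both its response and its genotype difference.

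Set in order, the group means of Dusp6 and Spred2 ran from Inha-/- PMSG through wild-type PMSG and Inha-/- hCG to wild-type hCG, with no overlap between neighbours. For Dusp1 the order was Inha-/- PMSG, Inha-/- hCG, wild-type PMSG and wild-type hCG, and Inha-/- cells after hCG overlapped with both neighbours. For Dusp4 the PMSG groups of both genotypes overlapped, Inha-/- cells after hCG lay above them on every array, and wild-type cells after hCG lay higher still. For Dusp5, Dusp10 and Spry2 the groups split by treatment within each genotype, and the genotypes overlapped after PMSG and after hCG.

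Other genes of the pathway were read from lists, counted by the most variable probe set of each gene, a choice that favours probe sets that respond. By the same count the members gave 4 rises in 10 genes with hCG in Inha-/- cells (1.3% of 18193 genes) and 6 in 10 in wild-type cells (6.34%). Among the other MAP kinase phosphatases (Dusp2, Dusp7, Dusp8, Dusp9 and Dusp16) 1 of 5 passed, Dusp16, a phosphatase of JNK and p38, by 0.78 ± 0.27 with hCG in Inha-/- cells (adjusted p = 0.35) and by 1.4 ± 0.27 in wild-type cells (adjusted p = 0.00987). Of Spry3 and Spred3, Spred3 rose with hCG in wild-type cells (0.40 ± 0.082, adjusted p = 0.0131) and was lower in Inha-/- than in wild-type cells after hCG (-0.40 ± 0.082, adjusted p = 0.0126).

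Inputs and core of the pathway moved in part. Of 12 measured EGF-like ligands, their receptors and FGF receptors, 2 rose with hCG in Inha-/- cells, and 4 rose and 1 fell in wild-type cells. Areg, another EGF-like ligand gene of this list, had no single-gene probe set and was not read. The ligand gene Ereg rose by 9.54 ± 0.33 in Inha-/- and 8.12 ± 0.33 in wild-type cells, and Btc by 8.21 ± 0.38 in Inha-/- and 8.82 ± 0.38 in wild-type cells. Of 10 measured genes from GRB2 to ERK, 10 did not pass with hCG in Inha-/- cells, and Grb2, Sos2, Nras and Map2k2 rose in wild-type cells. The difference of the responses passed for Grb2 (-0.93 ± 0.16, adjusted p = 0.0326). It did not pass for Sos2 (-0.57 ± 0.32), Nras (-0.41 ± 0.25) or Map2k2 (-0.46 ± 0.34). Of the 22 alternatives, the rise in wild-type cells was lost in 0 for Grb2, 2 for Sos2, 6 for Nras and 11 for Map2k2. Leaving out 1 array accounted for 1, 4 and 7 of the losses of Sos2, Nras and Map2k2. Grb2 was lower in Inha-/- than in wild-type cells after hCG (-1.11 ± 0.11, adjusted p = 0.000423). Of the 12 inputs, 3 were higher and 0 lower in Inha-/- cells after PMSG (Fgfr4, Egfr and Fgfr1). After hCG 3 were higher (Fgfr4, Fgfr2 and Ereg) and 1 lower (Tgfa). Among all genes 1.7% were called higher and 1.64% lower in Inha-/- cells after PMSG, and 7.79% and 5.47% after hCG. Fgfr4 differed by 5.15 ± 0.41 after PMSG and by 4.47 ± 0.41 after hCG. The genotype calls of Fgfr1, Ereg and Tgfa were lost in 14, 12 and 14 of the 22 alternatives. In the p38 and JNK branch 1 of 8 genes passed, Map2k6, a kinase of p38, which fell by 1.12 in wild-type cells after hCG (adjusted p = 0.0278). Its difference in Inha-/- cells, -1.15, was alike in size but did not pass. The difference of the responses was -0.026 ± 0.39 (adjusted p = 0.978). The wild-type call was lost in 9 of the 22 alternatives, 5 of them single left-out arrays (highest adjusted p of these 0.114).

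**Figure D4:**
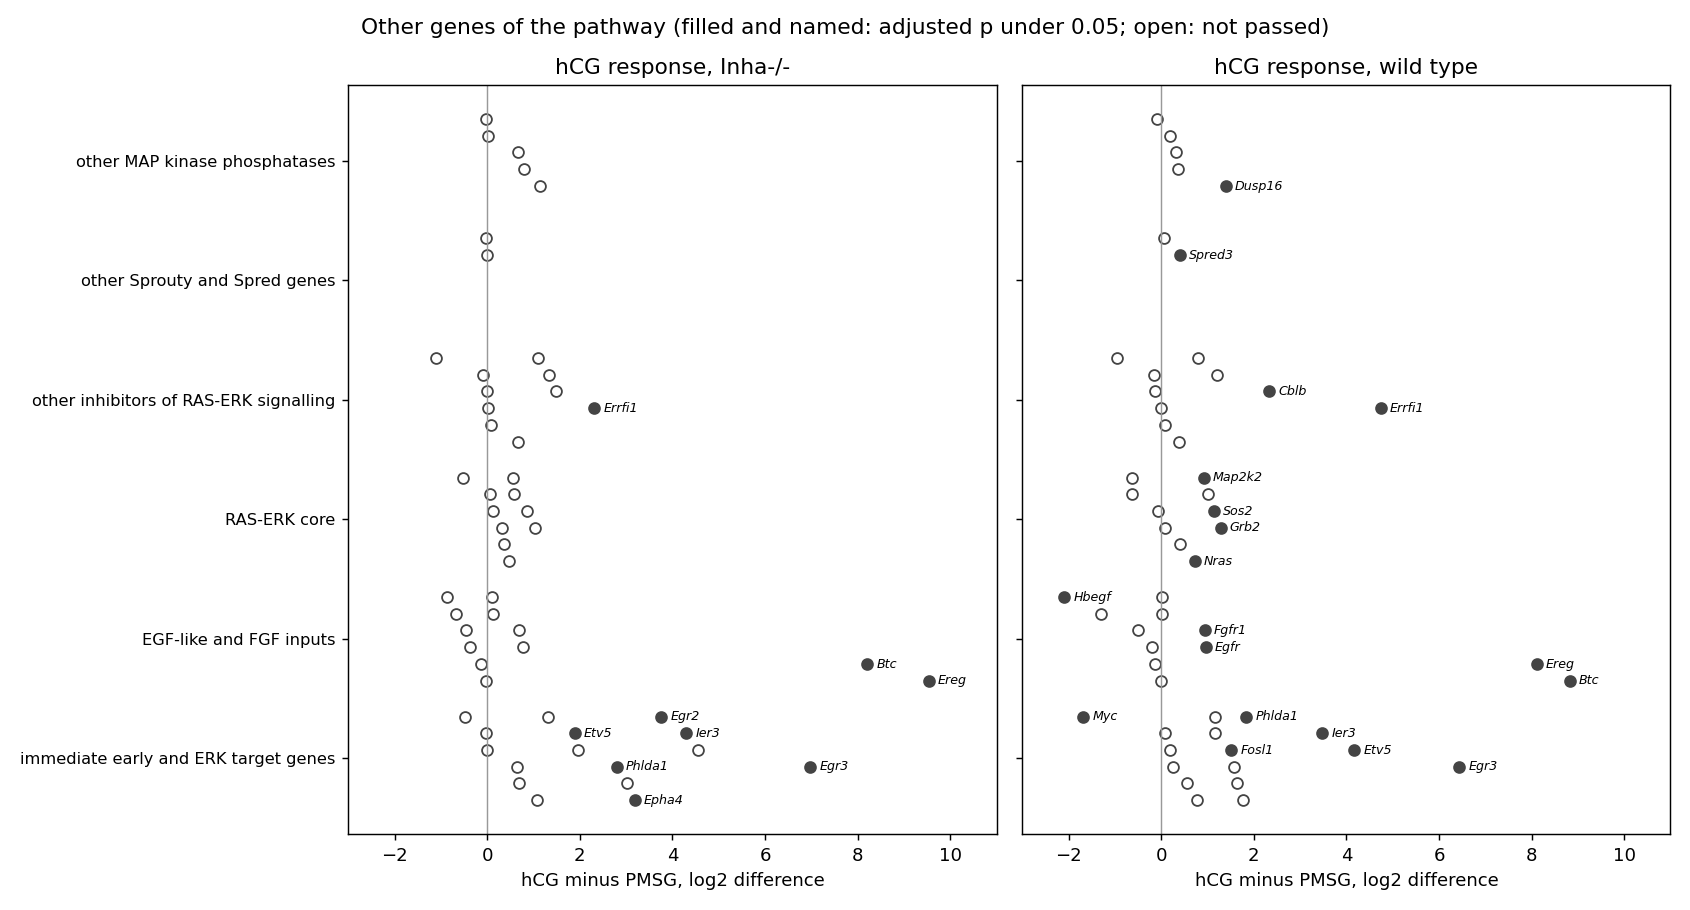
Log2 response to hCG (horizontal axis) of the other pathway genes by list, in Inha-/- cells on the left and wild-type cells on the right; filled and named points passed at an adjusted p under 0.05. Ereg and Btc stand above 8 in both genotypes, while Errfi1 stands at 2.31 in Inha-/- and 4.75 in wild-type cells.

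Among 10 other inhibitors of RAS-ERK signalling, Errfi1 passed in both genotypes and Cblb in wild-type cells. Errfi1, whose product blocks the kinase domain of the EGF receptor, lay at 0.93, 0.65 and 0.66 in Inha-/- cells after hCG, against -1.34, -1.77 and -1.59 after PMSG, and at 3.63, 3.60 and 4.08 in wild-type cells after hCG, against -0.65, -1.11 and -1.17 after PMSG. Its response was smaller in Inha-/- cells by 2.44 on the log2 scale (coded -2.44 ± 0.26, adjusted p = 0.00386), a difference of responses that passed where those of the 10 members did not. Cblb, a ubiquitin ligase that removes activated receptors, differed by -1.74 ± 0.29 between Inha-/- and wild-type cells after hCG (adjusted p = 0.00468). Lrig1 and Pebp1 of this list were higher in Inha-/- cells after hCG, by 0.85 and 0.50. These calls were lost in 7 and 10 of the 22 alternatives, in both cases also with the replicate number as a block.

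Genes that ERK induces were counted in a list of 16 measured. With hCG 6 rose in Inha-/- cells, and 5 rose and 1 fell in wild-type cells. Etv5, an ETS transcription factor gene known as a target of FGF and ERK signalling, rose by 1.90 ± 0.36 in Inha-/- cells (adjusted p = 0.0432) and by 4.17 ± 0.36 in wild-type cells (adjusted p = 0.000145). The difference of these responses, -2.28 ± 0.51, did not pass (adjusted p = 0.0903). Etv5 was lower in Inha-/- than in wild-type cells after hCG (-2.35 ± 0.36, adjusted p = 0.0033). The only other gene of this list called there, Epha4, was higher in Inha-/- cells (3.22 ± 0.62, adjusted p = 0.00939). After PMSG Phlda1 (-2.17 ± 0.35) and Myc (-1.88 ± 0.28) were lower in Inha-/- cells, as was Dusp6. Of 12 genes that LH and cAMP induce in granulosa cells, 9 rose in Inha-/- and 10 in wild-type cells, with Ptgs2 at 10.78 in Inha-/- and 8.06 in wild-type cells.

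For 11 genes that respond to tissue dissociation and stress, the median on an array was 0.12, -0.0088 and -0.22 in Inha-/- cells after hCG, against 2.09, 0.68 and 0.65 in wild-type cells after hCG, and -0.096, -1.74 and -2.39 in Inha-/- cells after PMSG, against 1.58, -0.0066 and -0.23 in wild-type cells after PMSG. Of the 11, 1 passed between the genotypes, lower in Inha-/- cells after each treatment (Hspb1, named after its values were seen), 4 of the 11 also stand in the list of immediate early genes, and the part of this list in the Dusp1 difference was not tested. Markers of other cells differed between the genotypes in part. Of 10 oocyte markers 6 were higher in Inha-/- cells after hCG and 3 after PMSG, of 10 theca and stroma markers 7 and 5 were, and of 6 surface epithelium markers 3 and 4 were lower. Among all 18193 genes 7.79% were called higher and 5.47% lower in Inha-/- cells after hCG, and 1.7% and 1.64% after PMSG. Array medians of the oocyte list ran from 0.42 to 3.05 in Inha-/- cells after hCG, against -1.50 to -0.60 in wild-type cells after hCG, and from 0.80 to 2.37 in Inha-/- cells after PMSG, against -1.68 to -0.70 in wild-type cells after PMSG. Those of the theca and stroma list ran from 0.60 to 2.35 in Inha-/- cells after hCG, against -1.20 to -0.71 in wild-type cells after hCG, and from 0.50 to 1.65 in Inha-/- cells after PMSG, against -0.79 to -0.63 in wild-type cells after PMSG. Cyp17a1, the steroidogenic enzyme of theca cells in that list (named after its values were seen), lay lower on every Inha-/- array without passing, by -1.36 ± 0.67 after hCG (adjusted p = 0.28) and -2.94 ± 0.67 after PMSG (adjusted p = 0.0514). Array medians of the surface epithelium list ran from -0.59 to -0.18 in Inha-/- cells after hCG, against 0.29 to 1.03 in wild-type cells after hCG, and from -1.46 to -0.66 in Inha-/- cells after PMSG, against 0.071 to 0.82 in wild-type cells after PMSG. Of 7 granulosa markers 5 fell with hCG in wild-type cells, where 7.14% of all genes were called lower, and 7 did not pass in Inha-/- cells. Between genotypes 2 of the 7 were higher in Inha-/- cells after hCG, and after PMSG 7 did not pass. Array medians of this list ran from -0.13 to -0.055 in Inha-/- cells after hCG, against -2.31 to -0.85 in wild-type cells after hCG, and from -0.044 to 0.61 in Inha-/- cells after PMSG, against 0.36 to 0.61 in wild-type cells after PMSG. No leukocyte, endothelial or red blood cell marker passed between groups. The part of these markers in the differences of Dusp1, Dusp4 and Dusp6 was not tested, and since values are centred, none can be said to be at 0.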

How the data were processed

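Total RNA of granulosa cells was measured on 12 arrays. The deposited table holds log2 values. GCRMA is named, without a version, in the submitters' processing notes. The values themselves show a centring of every probe set on its 12-array median (no median exceeds 5e-07), a step that no label records. The widest probe set spans 13.3 units, more than the 11.1 of natural log values from 16-bit signals. The table held 0 columns of other samples.

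Probe sets were named from the platform annotation: of 45101, 34945 named 1 gene, 932 several and 9160 none, and 64 controls were left out. A group-means model was fitted to all 34945 with limma 3.58.1 in R 4.3.3, without a filter, with Benjamini-Hochberg adjustment across the whole table. An adjusted p under 0.05 was called. The 5 contrasts were Inha-/- minus wild type after PMSG and after hCG, hCG minus PMSG in each genotype, and the Inha-/- response minus the wild-type response. The lead probe set of a gene is the most variable by SD over the 12 arrays, groups ignored. Named genes were Inha, the 10 members, and up to 4 passing genes of each list and contrast with the smallest adjusted p. A number after ± is an SE for a difference and an SD for a group mean.

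The labels give no batch. Serial numbers in the array names fall into 7 early and 5 late arrays, and another number is shared by some arrays; both were tried as terms. Correlations between same-numbered replicates ran from -0.141 to 0.265, and 8 of 12 arrays correlated best with their own replicate number. Whether the replicate numbers pair the samples is therefore not settled. The fitted correlation between arrays that share the number in their array names was 0.573. Alternatives were each array left out, these terms, a filter on SD, 1 probe set a gene, further quantile normalization, median centring, array weights, a robust prior and, added after seeing the data, the early arrays alone. The code was tested on simulated data. The number of arrays limits the precision. The members, gene lists and tests were chosen with earlier results of these data known.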

Additional observations from a re-analysis of the deposited data

Results flagged for a closer look

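The limma test of the difference of the responses (Inha-/- response minus wild-type response, adjusted over all single-gene probe sets) passed for 325 of 34945 probe sets. The 5 genes below are those that passed among the gene lists, which were chosen with earlier results of these data known. All 5 lie outside the phosphatase, Sprouty and Spred set. The EGF receptor inhibitor gene Errfi1 responded by 2.31 in Inha-/- and 4.75 in wild-type cells, a difference of -2.44 ± 0.26 (SE, adjusted p = 0.00386), which missed the threshold after a further quantile normalization and on the early arrays alone. The adaptor gene Grb2 responded by 0.36 in Inha-/- and 1.28 in wild-type cells, a difference of -0.93 ± 0.16 (adjusted p = 0.0326), and this call was lost under 16 of the 22 alternatives. Snap25, a gene of vesicle fusion, differed by -6.10 ± 0.47 (adjusted p = 0.00077). Sult1e1, the oestrogen sulphotransferase gene, differed by -2.70 ± 0.36 (adjusted p = 0.0109), and by -1.69 (adjusted p = 0.132) after a further quantile normalization. Ptgs2, the prostaglandin synthase gene of ovulation, differed by 2.73 ± 0.37 (adjusted p = 0.0127), with responses of 10.78 in Inha-/- and 8.06 in wild-type cells.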

How the results depend on the processing

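Counts of member probe sets called, of 26, were 1 and 2 for Inha-/- against wild type after PMSG and after hCG, 6 and 7 for hCG in Inha-/- and in wild-type cells, and 0 for the difference of the responses. With each array left out in turn they ran over 0 to 4, 1 to 4, 3 to 7, 5 to 9 and 0 to 2 in that order, and the counts over all probe sets over 527 to 1389, 2488 to 4591, 290 to 478, 2274 to 4624 and 142 to 789. After PMSG the member count was 2 with the replicate block, with the serial number as a covariate and with the filter on SD, 3 with the shared array number as a random block, 0 after quantile normalization and 0 on the early arrays alone. After hCG it was 4 with the SD filter and 1 with either the random block or quantile normalization. Whether the replicate numbers pair the samples is not settled, since 8 of 12 arrays correlated best with their own number. With the replicate block the other member counts were 3 after hCG, 4 and 8 for hCG in Inha-/- and in wild-type cells, and 0 for the difference of the responses. On the early arrays alone, an alternative chosen after seeing the data, members gave 2 for hCG in Inha-/- cells and 3 for the difference of the responses, and all probe sets gave 158 after PMSG, 1160 after hCG, 254 for hCG in Inha-/- and 1937 in wild-type cells. Array weights raised the member counts to 6 after PMSG, 6 after hCG, 14 for hCG in wild-type cells and 6 for the difference of the responses, and the counts over all probe sets to 9207, 9309, 8962 (hCG in Inha-/-), 10699 (hCG in wild type) and 7385. Under these weights 2 Spred1 probe sets reversed after PMSG, to 0.74 (adjusted p = 0.0196) and 0.90 (adjusted p = 0.0175) in Inha-/- minus wild type. The weights ran from 0.125 for Inha-/- replicate 3 to 7.64 for Inha-/- replicate 1, both after PMSG. The random block gave 2596 calls over all probe sets after PMSG, 2297 after hCG and 1962 for hCG in wild-type cells. With 1 probe set a gene the calls were 638 after PMSG, 2485 after hCG, 2531 for hCG in wild-type cells and 211 for the difference of the responses, over fewer tests. The cause of the other changes was not tested. Of 4048 recomputed single differences, 3764 kept their side of the threshold, 65 gained and 217 lost a call, and 2 reversed. A change of direction was counted as reversed only where a call was involved. Differences that changed direction without a call are among the 3764. Signal over background cannot be read from centred values.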
